A study of Arabidopsis thaliana with 12 samples.

Results

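A set of 57 genes, of 27655 in the deposited expression table, had lower messenger RNA in the stems of the lignin mutant ccr than in wild-type stems and higher messenger RNA again in the double mutant ccrfer. They were chosen on these same values by a rule. A gene had FPKM (mapped fragments per length of transcript and per depth of library) of 1 or more in at least 3 libraries, a ccr minus WT difference of genotype means of -1 or less and a ccrfer minus ccr difference of 1 or more, both on the log2(FPKM + 1) scale, and a ccrfer minus WT difference above -2 and under 1. Every ccr library also had to lie below every WT and every ccrfer library. Of 62 genes that met these conditions, 5 were left out, 2 of them chloroplast genes. The ccr, ccrfer and WT libraries therefore fixed the direction of every member, and their differences are given as a description. The fer-labelled libraries took no part in the choice.

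The samples were main inflorescence stems of 2-month-old Arabidopsis thaliana plants, with 3 biological replicates of each of 4 genotypes. The double mutant, ccrfer, carried ccr1-3 together with fer4, although the genotype entries of its replicates 2 and 3 give fer5 and fer6 in place of fer4. The libraries labelled fer are given as fer4 (their FER messenger is given below), ccr carried ccr1-3, and the wild type (WT) was Col-0. All 4 genotypes were sampled at that age, with no treatment named, and how many plants made up a replicate was not given in the sources used here.

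CCR1 encodes cinnamoyl-CoA reductase, an enzyme at the entry of the branch that makes lignin monomers, and mutants in it have weak, thin-walled vessels and are dwarfed. FERONIA (FER) is a receptor kinase of the plasma membrane that senses the state of the cell wall and binds RALF peptides. The inflorescence stem holds epidermis with cuticular wax, phloem, cambium and xylem, and its lignin lies in xylem vessels and fibres. The question given with the series concerned genes that are up in ccr1-3, so the genes described here run the other way. The authors' deposited table of 313 genes lists 0 with a log2(ccr/wt) under 0, so a gene chosen as lower in ccr could not be in it.

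The 250 bases before the annotated start are shown for 3 members (reference genome TAIR10.1, 5′ to 3′ on the gene's strand). The first pair, AT1G47395 (window chr1:17382748-17382997, + strand) and AT1G47400 (window chr1:17385457-17385706, + strand), are adjacent genes 1876 bases apart that moved together in all 4 genotypes. Capitals mark the longest run that the pair of windows shares, 28 bases.
AT1G47395: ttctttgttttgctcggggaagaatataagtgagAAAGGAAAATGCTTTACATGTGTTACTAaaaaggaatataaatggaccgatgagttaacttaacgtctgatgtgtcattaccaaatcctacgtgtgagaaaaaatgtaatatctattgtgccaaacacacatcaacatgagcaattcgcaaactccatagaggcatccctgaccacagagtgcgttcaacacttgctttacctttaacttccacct
AT1G47400: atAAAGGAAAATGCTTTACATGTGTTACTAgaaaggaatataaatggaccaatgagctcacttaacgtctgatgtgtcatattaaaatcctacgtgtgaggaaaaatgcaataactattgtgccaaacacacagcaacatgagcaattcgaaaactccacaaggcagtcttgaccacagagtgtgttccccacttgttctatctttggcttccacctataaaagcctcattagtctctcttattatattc
The windows were identical at 88.0% of 217 aligned bases and the gene spans at 78.1% of 685 aligned bases. The third window belongs to AT5G03545 (chr5:894332-894581, + strand), a phosphate-starvation RNA that AT2G07698 alone of the members exceeded in WT level. Capitals mark a match to P1BS (letters GNATATNC), the element that the phosphate-starvation factor PHR1 binds, 26 to 19 bases before the start.
AT5G03545: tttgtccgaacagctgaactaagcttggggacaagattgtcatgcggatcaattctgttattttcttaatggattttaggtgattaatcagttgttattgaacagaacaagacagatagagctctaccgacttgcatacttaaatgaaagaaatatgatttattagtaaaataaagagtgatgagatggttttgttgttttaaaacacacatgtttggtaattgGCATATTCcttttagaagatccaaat
P1BS was searched on both strands in the 250-base windows of the 56 members that the reference holds. It was present in 4 of them (7.1%), AT5G03545, UGT84A2, AT4G30450 and NSP1, against 5.5% of 18263 windows of tested genes and 5.5% of 27443 windows of all genes. The G-box (letters CACGTG) was present in 5 members (8.9%), HKT1, ERF15, UF3GT, NUDT8 and AT5G41830, against 7.4% of tested genes, and UF3GT held it at 2 places. The evening element (letters AAAATATCT) was present in 3 members (5.4%), EARLI1, AT4G31620 and AT4G30660, against 2.5% of tested genes. The 3 motifs share no match position in these windows, and a match is a description of letters, not a binding site or a cause.

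Libraries held 56884740 to 227159338 reads, of which 91.4% to 94.2% were mapped. FER itself had 0.849 ± 0.668 FPKM in ccrfer, 84.1 ± 1.02 in the fer-labelled libraries, 98.2 ± 1.96 in ccr and 84.1 ± 1.58 in WT (SD, n = 3 each). The fer-labelled libraries thus held FER messenger at the WT level and those of ccrfer did not, and no direction below is credited to loss of FER in the fer-labelled libraries. CCR1 messenger was present in all genotypes, at 206 ± 26.0 FPKM in ccrfer, 319 ± 30.2 in the fer-labelled libraries, 199 ± 18.3 in ccr and 236 ± 17.3 in WT. Phloem, cambium and xylem markers were all present (3 of 3, 3 of 3 and 5 of 5 passed the FPKM filter), with 3 of 4 epidermis markers. Markers of floral organs (0 of 7 passed, sums of 2.1 FPKM or less) and root hairs (both at 0 in all libraries) were low or absent. The summed xylem and fibre markers reached 663 to 680 FPKM in ccrfer, 250 to 272 in the fer-labelled libraries and 361 to 367 in ccr, against 7.12 to 9.19 in WT. All 4 seed storage markers passed, with sums of 51.7 to 58.2 FPKM in the fer-labelled libraries, against 0 to 0.505 in ccrfer, 0.356 to 0.602 in ccr and 0 to 0.0713 in WT. The part of these marker differences in the results below was not tested. In bulk tissue, fewer cells of a type and less RNA per cell cannot be told apart.

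Replicate 3 of ccrfer stood apart from the other libraries. It held 9582 genes listed at FPKM 0, against 6064 to 8216 in the other 11 libraries, and AT2G01021 was highest there, at 4.59e+07 FPKM. That gene had 1.43e+06 to 1.51e+07 FPKM in the fer-labelled libraries and 6.13e+06 and 113705 in ccrfer replicates 1 and 2. In ccr and WT it lay between 42536 and 410312. Genes at 0 numbered 8216 and 7625 in fer replicates 2 and 3 and 7101 in ccrfer replicate 1. In ccr and WT they numbered 6064 to 6686. The part of these differences in the contrasts with the fer-labelled libraries was not tested. For 7 members (AT1G72416, AT5G41830, ATMG01370, CKX4, MYB60, NAC038 and PnsL2) the level in ccrfer replicate 3 was over 2-fold that of each other ccrfer replicate. This happened for 0 members in replicate 1 and 0 in replicate 2. Without that library, 59 genes met the rule, and they included 48 of the 57. The 9 that dropped out were AT1G72416, AT5G41830, CIPK21, ERF15, GASA1, MYB60, NAC038, OZS1 and PnsL2, so their place in the set depends on that library. Of these, AT5G41830, CIPK21, GASA1 and PnsL2 were also lost under other alternatives (listed at the end). AOP1, AT4G24350, AT5G47330, ATMG01370, FT and MLP34 met the rule without that library but were lost under other alternatives.

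The median member had a mean of 9.58 FPKM in ccrfer, 9.58 in the fer-labelled libraries, 2.29 in ccr and 10.2 in WT. WT means ran between 1.53 and 556 FPKM, and 16 members had a ccr mean under 1. The median ccr minus WT difference of the members was -1.55, against 0.03 over the 18428 genes tested, and the median ccrfer minus ccr difference was 1.38, against 0.00. With AT2G07698 set aside, which was listed at 0 in every ccr library, the differences lay between -3.50 and -1.03 for ccr minus WT and between 1.00 and 2.33 for ccrfer minus ccr. These values chose the members. The pseudocount of 1 makes the differences of low genes smaller than their ratios of FPKM.

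The return in ccrfer varied. As a share of the log2 loss in ccr, 21 members regained 100% or more and 8 regained under 60%, from AT4G24350 at 183% to FT at 38%. The ccrfer libraries lay below all WT libraries for 22 members, above all of them for 7 and overlapped them for 28 (over all tested genes, 26.9% lay below and 28.6% above). The same contrast stood in the rule, so nothing is read from these counts. Replicates spread more in the 2 genotypes with a fer label. The median coefficient of variation of the members was 20.3% in ccrfer, 16.4% in the fer-labelled libraries, 11.3% in ccr and 9.48% in WT.

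**Figure D1:**
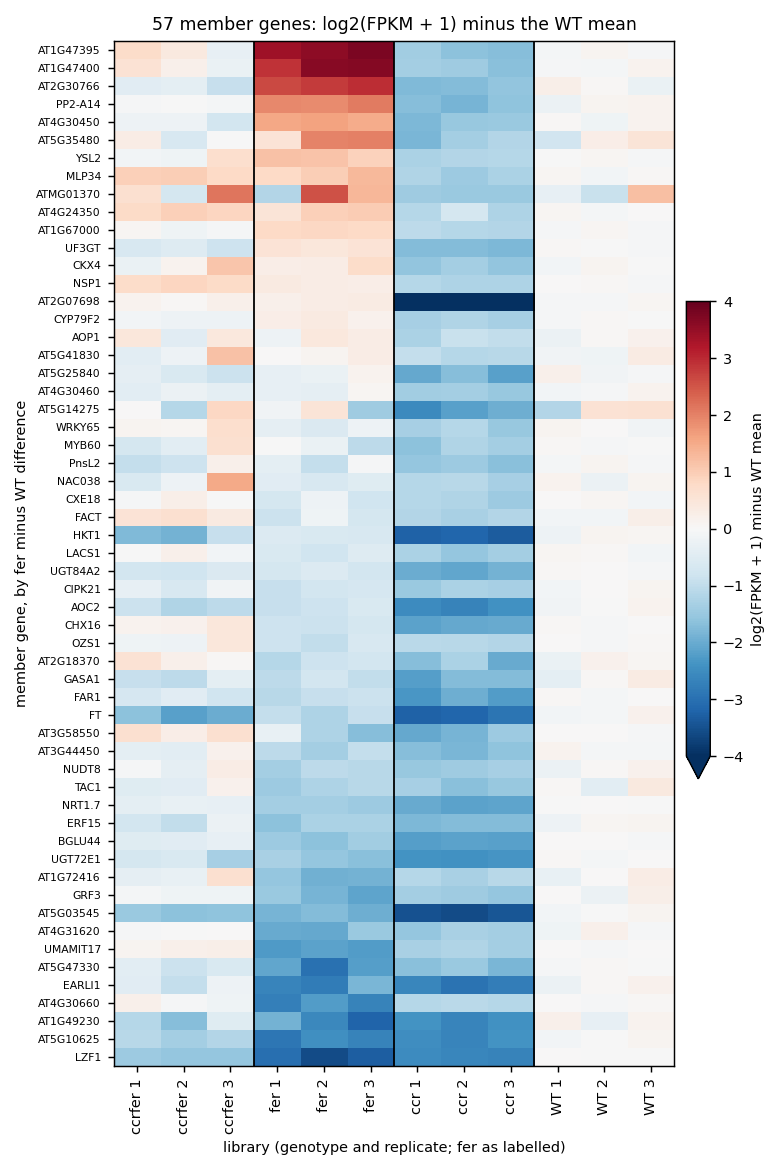
Log2(FPKM + 1) of the 57 genes (rows, ordered by the fer minus WT difference) in each of the 12 libraries (columns, 3 of each genotype), shown as the difference from the gene's WT mean, with red above and blue below it. The ccr columns are blue in every row because of the rule, whereas the columns of the fer-labelled libraries run between deep red (AT1G47395, 3.58 above WT) and deep blue (LZF1, -3.30).

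In the fer-labelled libraries the 57 genes split. By limma with Benjamini-Hochberg adjustment over all 18428 tested genes, 32 were lower than in WT (56.1%, against 23.2% of all tested genes) and 14 were higher (24.6%, against 28.4%), while 11 passed in neither direction. Without regard to the test, all fer-labelled libraries lay below all WT libraries for 34 members (28.9% of all tested genes) and above them for 15 (34.5%). The median fer minus WT difference was -0.65, against 0.04 over all tested genes. The WT libraries had been used to choose the members. Against ccr, 40 members were higher in the fer-labelled libraries (20.5% of all tested genes) and 5 were lower (18.5%). The ccr libraries had been used to choose the members, as low. Between the genotypes with a fer label, 28 members were higher in ccrfer than in the fer-labelled libraries (19.3% of all tested genes) and 12 were lower (21.3%). The p-values set each difference of genotype means against the spread between replicate libraries, estimated for all genotypes together. The 3 contrasts share libraries with the rule and with each other, so they are set side by side and not combined into a further test.

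Placed by both calls, 17 members were lower than WT and higher than ccr in the fer-labelled libraries, an intermediate level (1.62% of all tested genes). A further 14 were higher than both WT and ccr (13.7%), 5 were lower than both (10.8%), and 10 were lower than WT with no call against ccr (10.8%). Another 9 were higher than ccr with no call against WT (5.25%), and 2, ATMG01370 and NAC038, had neither call (37.5%). Members chosen as high in WT and low in ccr leave room between the 2 levels, so nothing is read from the share at an intermediate level. The genes higher than both were AT1G47395, AT1G47400, AT2G30766, PP2-A14, AT4G30450, AT5G35480, YSL2, MLP34, AT4G24350, AT1G67000, UF3GT, NSP1, AT2G07698 and CYP79F2. The genes lower than both were LZF1, AT4G30660, AT5G47330, UMAMIT17 and AT4G31620.

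**Figure D2:**
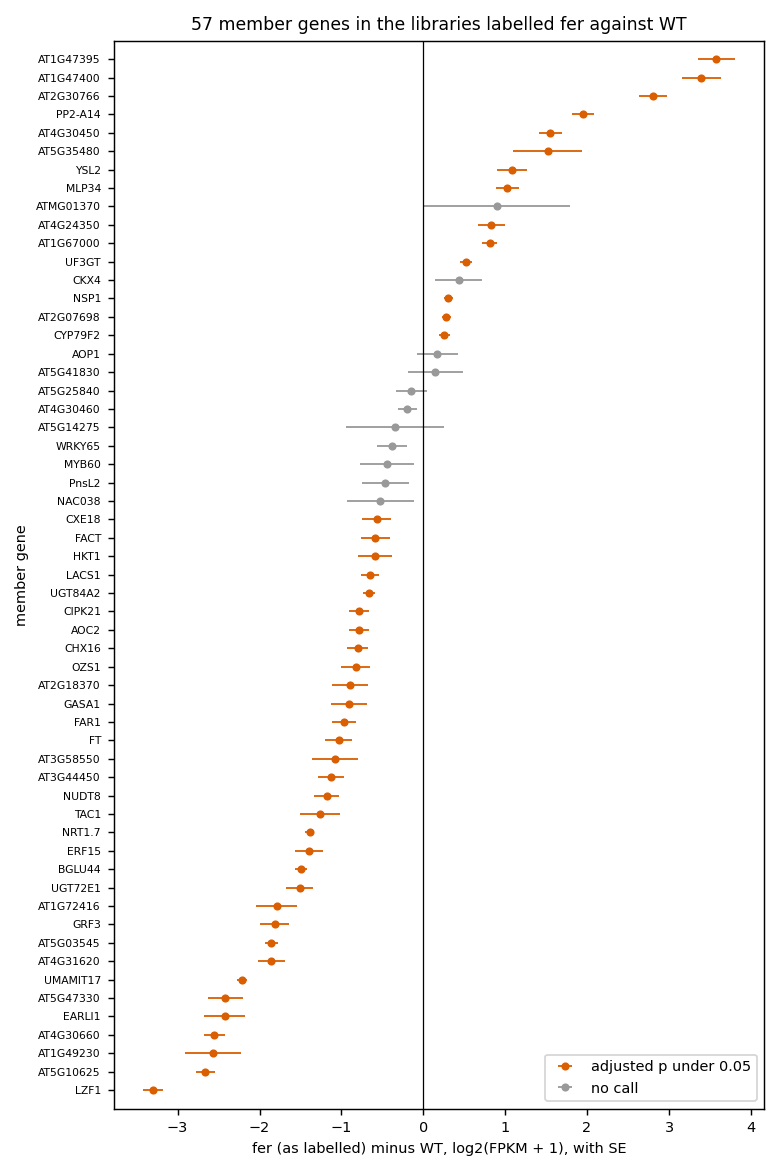
Fer minus WT difference on the log2(FPKM + 1) scale (horizontal axis) for each of the 57 genes (vertical axis), with the standard error of the limma fit as bars, orange where the adjusted p was under 0.05 and grey where it was not. The 14 higher and 32 lower genes lie on either side of 0, between 3.58 for AT1G47395 and -3.30 for LZF1, and the bars differ in width, so that uncalled ATMG01370 (0.90) and CKX4 (0.43) lie farther above 0 than called CYP79F2 (0.26).

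Phosphate starvation was represented by AT5G03545 (chr5:894582-895517, + strand), annotated as expressed in response to phosphate starvation. Plants make RNAs of its class when phosphate is short, and these bind the microRNA that removes the phosphate regulator PHO2. It had 184, 165 and 168 FPKM in ccrfer, 141, 152 and 131 in the fer-labelled libraries and 44.7, 41.8 and 46.9 in ccr, against 478, 511 and 551 in WT. The 4 genotypes did not overlap, and the order was ccr, fer, ccrfer, WT. The fer-labelled libraries were 1.85 lower than WT (fer minus WT -1.85, SE 0.08, limma adjusted p = 1.58e-09) and 1.65 higher than ccr (SE 0.08, limma adjusted p = 1.18e-08).

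Most other phosphate-starvation genes were below WT in ccrfer, the fer-labelled libraries and ccr. Of 26 tested list genes that are no members, 24 were below WT in ccr and 0 above (19.8% and 24.0% of all tested genes). In ccrfer, 7 were above ccr and 1 below (10.4% and 10.1%), and 25 were below WT and 0 above (22.8% and 24.9%). In the fer-labelled libraries, 23 were below WT and 1 above (23.2% and 28.4%). Their median ccr minus WT difference was -1.74 and their median ccrfer minus ccr difference 0.11. SPX1, a phosphate sensor protein of the nucleus, had 13.3 ± 4.1 FPKM in ccrfer, 18.6 ± 2.5 in the fer-labelled libraries and 6.11 ± 0.596 in ccr, against 211 ± 28.7 in WT (SD, n = 3 each), and was among the 7 above ccr in ccrfer (ccrfer minus ccr 0.98, limma adjusted p = 0.00201). PAP17, an acid phosphatase, was lower again in ccrfer than in ccr, at 6.65 ± 2.51 and 24.4 ± 1.59 FPKM (ccrfer minus ccr -1.79, limma adjusted p = 3.52e-05), with 112 ± 2.63 in WT. AT5G03545 was selected for its return, so its contrast with these genes is no independent result.

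Enzymes that attach sugars to plant compounds or remove them made up a group of 4. UGT72E1 (chr3:18855043-18857040, - strand) glucosylates the aldehydes of the lignin monomer route, which lie just past the CCR1 step. It had 17.8, 19.1 and 11.1 FPKM in ccrfer, 11.5, 9.46 and 8.67 in the fer-labelled libraries and 4.87, 4.70 and 5.07 in ccr, against 31.1, 28.3 and 30.1 in WT. The fer-labelled libraries lay between ccr and WT without overlap (fer minus WT -1.51, SE 0.16, limma adjusted p = 9.64e-06). Its relative UGT72E2 was low throughout, at 2.18 ± 0.244 FPKM in ccrfer, 1.21 ± 0.219 in ccr and 1.65 ± 0.324 in WT. UGT72E2 had no call in ccr against WT, but was higher in ccrfer than in ccr (ccrfer minus ccr 0.52, limma adjusted p = 0.0281). UGT84A2 (chr3:7595680-7597607, + strand) makes sinapoyl glucose, the donor for sinapate esters. It had 37.9, 36.3 and 42.5 FPKM in ccrfer, 38.5, 42.8 and 38.0 in the fer-labelled libraries and 15.5, 14.3 and 16.3 in ccr, against 65.5, 63.8 and 61.5 in WT. The genotypes with a fer label overlapped, with a ccrfer minus fer difference of -0.03 (SE 0.08, limma adjusted p = 0.763).

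UF3GT (chr5:21936746-21938396, - strand) adds a further sugar to anthocyanins, the red pigments of stressed stems. It had 49.2, 54.0 and 42.9 FPKM in ccrfer, 113, 106 and 114 in the fer-labelled libraries and 22.6, 22.5 and 21.4 in ccr, against 80.0, 75.9 and 75.4 in WT. Here the fer-labelled libraries lay above WT (fer minus WT 0.52, SE 0.08, limma adjusted p = 0.000113). The fourth, BGLU44, is a beta-glucosidase, of a class that removes sugars, and ran at 47.3, 48.2 and 52.8 FPKM in ccrfer, 24.1, 20.9 and 25.1 in the fer-labelled libraries and 13.8, 14.5 and 14.1 in ccr, against 68.1, 68.0 and 65.3 in WT. Of 21 other tested flavonoid and anthocyanin genes, 12 were below WT in ccr and 7 above (19.8% and 24.0% of all tested genes). In ccrfer, 13 were above ccr and 2 below (10.4% and 10.1%). In the fer-labelled libraries, 13 were above WT and 3 below (28.4% and 23.2%). DFR and LDOX, late enzymes of anthocyanin synthesis, were among those lower in ccr. DFR had 175 ± 10.5 FPKM in ccrfer and 159 ± 1.41 in ccr, with 384 ± 14 in WT, and its ccrfer minus ccr difference of 0.14 had no call (limma adjusted p = 0.0962; 0.0297 without ccrfer replicate 1). LDOX had 110 ± 14.9 FPKM in ccrfer and 73.9 ± 5.63 in ccr, with 193 ± 5.62 in WT (ccrfer minus ccr 0.56, limma adjusted p = 0.000931).

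**Figure D3:**
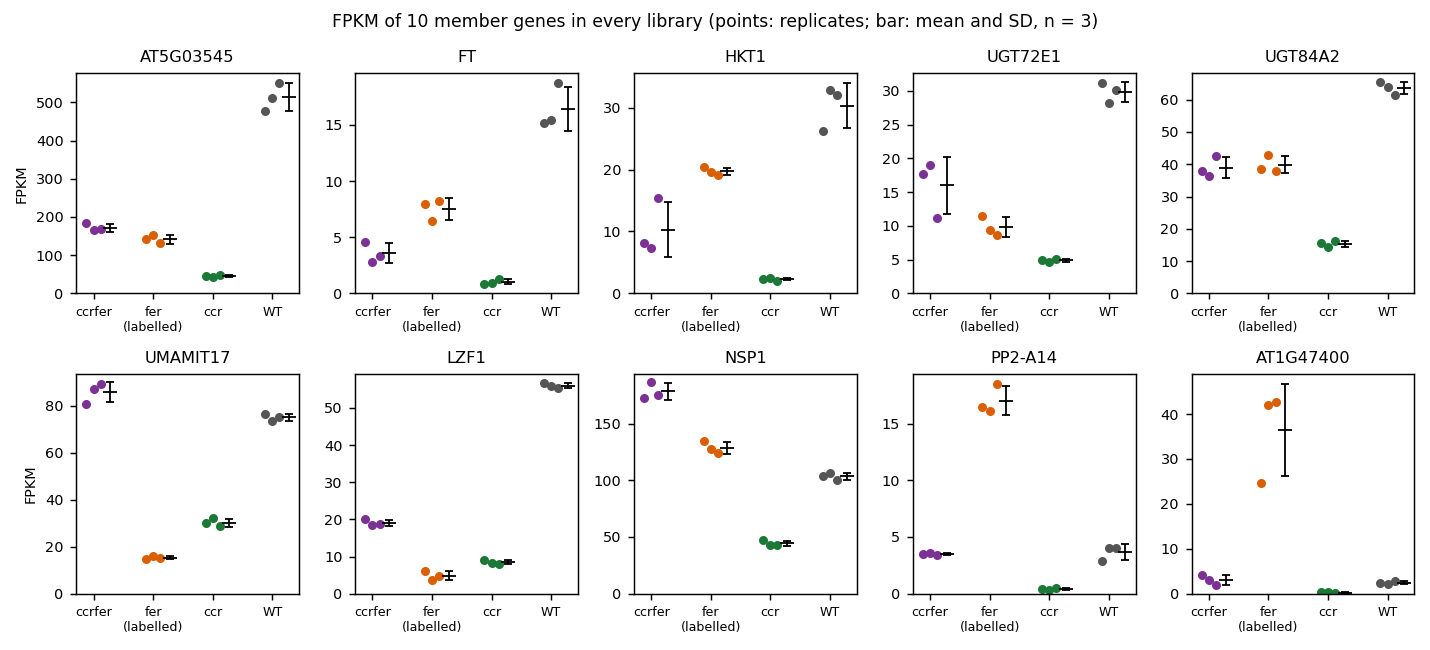
FPKM (vertical axes, each starting at 0) of 10 of the 57 genes in every library, by genotype, with points for replicates and a bar for the mean with its SD (n = 3). AT5G03545, FT, HKT1, UGT72E1 and UGT84A2 sit at intermediate levels in the fer-labelled libraries, UMAMIT17 and LZF1 at their lowest level, and NSP1, PP2-A14 and AT1G47400 above WT.

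A group of 6 members belongs to surface lipids and lipid transfer, and all 6 were called below WT in the fer-labelled libraries, a call made for 56.1% of the 57 and 23.2% of all tested genes. This group and those below were formed after the values were seen, so their counts are a description. FAR1 reduces fatty acids to the fatty alcohols of suberin, FACT joins fatty alcohols to caffeic acid, and LACS1 activates long fatty acids for wax and cutin. FACT had 7.91, 8.48 and 6.80 FPKM in ccrfer, 2.31, 4.33 and 2.68 in the fer-labelled libraries and 1.67, 1.48 and 1.68 in ccr, against 4.64, 4.54 and 6.02 in WT. Its ccrfer libraries lay above all WT libraries. Its fer minus WT difference of -0.59 (SE 0.18, limma adjusted p = 0.0161) had no call without fer replicate 1, fer replicate 3 or WT replicate 3, with adjusted p up to 0.0743. FAR1 had 4.35, 5.26 and 3.93 FPKM in ccrfer, 2.92, 3.51 and 3.73 in the fer-labelled libraries and 0.700, 1.23 and 0.827 in ccr, against 7.87, 7.17 and 7.63 in WT. LACS1 had 27.1, 31.9 and 25.4 FPKM in ccrfer, 17.6, 15.4 and 19.0 in the fer-labelled libraries and 10.9, 8.88 and 10.1 in ccr, against 29.1, 28.4 and 25.3 in WT. LACS1 in ccrfer overlapped WT, whereas FAR1 stayed below it.

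The other 3 of the group, EARLI1, AT2G18370 and AT3G58550, are annotated in the lipid-transfer protein family of small secreted proteins. EARLI1 (chr4:7406065-7406994, - strand) had 9.92, 6.74 and 12.1 FPKM in ccrfer, 1.4, 1.15 and 3.18 in the fer-labelled libraries and 1.45, 0.915 and 1.21 in ccr, against 11.8, 14.5 and 15.8 in WT. The fer-labelled libraries overlapped ccr (fer minus ccr 0.35, SE 0.25, limma adjusted p = 0.303) and lay below WT (fer minus WT -2.43, SE 0.25, limma adjusted p = 6.83e-06). Its relatives in tandem shared parts of this pattern. AT4G12490, 82.2% identical over 743 aligned bases, was listed at 0 in ccr and had 5.07 ± 1.22 FPKM in ccrfer, 1.32 ± 0.719 in the fer-labelled libraries and 0.718 ± 0.121 in WT, so that it too was low in ccr and higher in ccrfer. AZI1 had 0.605 ± 0.553 FPKM in ccrfer, 0.280 ± 0.323 in the fer-labelled libraries and 0.448 ± 0.0481 in ccr, against 2.73 ± 0.043 in WT. It was also below WT in ccr (ccr minus WT -1.36, limma adjusted p = 0.00106, but 0.051 with a pseudocount of 0.1), while its ccrfer minus ccr difference of 0.08 had no call (limma adjusted p = 0.852). EARLI1 and AT4G12490 may share reads, so their split is uncertain. AT3G58550 had 26.1, 20.1 and 26.0 FPKM in ccrfer, 13.3, 6.41 and 4.32 in the fer-labelled libraries and 3.25, 3.81 and 5.35 in ccr, against 16.8, 16.6 and 16.0 in WT, so that ccrfer lay above WT. AT2G18370 had means of 7.75, 2.86, 1.3 and 6.2 FPKM in ccrfer, labelled fer, ccr and WT. Among 7 other tested genes of a cuticle and lipid-transfer list, 6 were above WT in ccr and 0 below (24.0% and 19.8% of all tested genes). That direction is opposite to the members. In ccrfer, 6 of the 7 were above ccr and 0 below (10.4% and 10.1%), the same direction as the members. In the fer-labelled libraries, 4 were above WT and 1 below (28.4% and 23.2%).

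Transport proteins made up another group of 6, of which 5 were below WT and 1 above it in the fer-labelled libraries (23.2% and 28.4% of all tested genes). HKT1 (chr4:6391854-6395922, + strand) takes sodium back out of the xylem. It had 8.11, 7.36 and 15.4 FPKM in ccrfer, 20.3, 19.7 and 19.1 in the fer-labelled libraries and 2.34, 2.45 and 2.08 in ccr, against 26.2, 32.9 and 32.0 in WT. Its level in ccrfer was below that in the fer-labelled libraries (ccrfer minus fer -0.94, SE 0.20, limma adjusted p = 0.00322). The fer minus WT difference of -0.59 (limma adjusted p = 0.0293) had no call without WT replicate 2 or 3 or any 1 of the fer-labelled libraries, with adjusted p up to 0.0938.

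NRT1.7 (chr1:26315787-26320233, + strand) loads nitrate into the phloem for transport out of old leaves. It had 106, 113 and 109 FPKM in ccrfer, 53.0, 53.5 and 50.6 in the fer-labelled libraries and 33.4, 30.8 and 31.7 in ccr, against 136, 142 and 138 in WT, with 4 separate levels (fer minus WT -1.39, SE 0.05, limma adjusted p = 5.76e-10). UMAMIT17 (chr4:5244865-5248394, + strand), of a family of amino acid exporters, had 80.9, 87.0 and 89.0 FPKM in ccrfer, 14.8, 16.1 and 15.3 in the fer-labelled libraries and 29.9, 32.0 and 28.7 in ccr, against 76.5, 73.3 and 75.2 in WT. The fer-labelled libraries were the lowest for this gene and ccrfer the highest, with a ccrfer minus fer difference of 2.4 (SE 0.06, limma adjusted p = 2.89e-10). CHX16, a cation and proton exchanger, had 6.71, 7.01 and 8.75 FPKM in ccrfer, 2.93, 2.86 and 3.37 in the fer-labelled libraries and 0.608, 0.695 and 0.750 in ccr, against 6.26, 5.84 and 6.06 in WT. YSL2, of the family that carries metals bound to nicotianamine, was the member of this group that was higher in the fer-labelled libraries, at 24.3, 23.7 and 20.2 FPKM, with 9.39, 8.98 and 16.9 in ccrfer and 3.68, 3.99 and 4.09 in ccr, against 9.91, 10.8 and 9.71 in WT (fer minus WT 1.08, SE 0.18, limma adjusted p = 0.000372). An iron deficiency and storage list kept 14 tested genes, none of them members. The members AT1G47395, AT1G47400 and AT2G30766 had been entered on it but were left out, because the reference does not give them the listed names. Of the 14, 9 were above WT and 3 below in the fer-labelled libraries (28.4% and 23.2% of all tested genes). In ccrfer, 3 were above the fer-labelled level and 9 below (19.3% and 21.3%). The list's median ccrfer minus fer difference was -1.65, against -0.01 over all tested genes. In ccr, 4 of the 14 were above WT and 4 below (24.0% and 19.8%). In ccrfer, 1 was above ccr and 5 below (10.4% and 10.1%), with a median ccrfer minus ccr difference of -0.335. The members were chosen as higher in ccrfer than in ccr. YSL2 itself stands on a copper deficiency list, whose genes were mixed. Of the other 11 tested genes on that list, 5 were above WT and 3 below in the fer-labelled libraries (28.4% and 23.2% of all tested genes). In ccr, 5 of them were above WT and 5 below (24.0% and 19.8%). In ccrfer, 3 were above the fer-labelled level and 3 below (19.3% and 21.3%). The sixth member of the group, OZS1, also known as SLAC1, is the anion channel through which guard cells close stomata, and is given with the guard-cell genes below.

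FT and AT5G10625 relate to flowering. FT (chr1:24331373-24333999, + strand) is florigen, made in phloem companion cells. It had 4.62, 2.82 and 3.35 FPKM in ccrfer, 7.95, 6.41 and 8.21 in the fer-labelled libraries and 0.845, 0.942 and 1.27 in ccr, against 15.2, 15.4 and 18.7 in WT. Its ccrfer libraries lay below the fer-labelled libraries (ccrfer minus fer -0.90, SE 0.16, limma adjusted p = 0.000951), and its return of 38% was the smallest of the 57. AT5G10625 (chr5:3358787-3359817, + strand), annotated as a flowering-promoting factor-like protein, had 32.5, 27.0 and 30.6 FPKM in ccrfer, 8.73, 12.2 and 10.3 in the fer-labelled libraries and 11.9, 10.6 and 12.8 in ccr, against 66.2, 70.4 and 76.0 in WT. The fer-labelled libraries overlapped ccr there and lay below WT (fer minus WT -2.66, SE 0.12, limma adjusted p = 2.61e-09). Summed phloem markers, for genes read in phloem such as FT and NRT1.7, were 124 to 196 FPKM in ccrfer, 166 to 190 in the fer-labelled libraries and 125 to 142 in ccr, against 214 to 238 in WT, and their part in these levels was not tested.

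Of 8 members known or annotated as transcription regulators, 5 were below WT in the fer-labelled libraries, 0 were above and 3 had no call (23.2% below and 28.4% above over all tested genes, and 56.1% and 24.6% of the 57), so nothing is read from the count of 5. LZF1 (chr1:29566863-29568931, + strand), a light-regulated B-box zinc finger protein, had 20.0, 18.5 and 18.7 FPKM in ccrfer, 6.02, 3.74 and 4.81 in the fer-labelled libraries and 8.95, 8.38 and 7.89 in ccr, against 56.6, 56.0 and 55.5 in WT. It was below ccr as well as WT in the fer-labelled libraries (fer minus WT -3.30, SE 0.12, limma adjusted p = 5.76e-10; fer minus ccr -0.70, SE 0.12, limma adjusted p = 0.00063). ERF15, an ethylene-response factor, had 18.7, 15.8 and 27.0 FPKM in ccrfer, 9.52, 12.6 and 12.7 in the fer-labelled libraries and 8.45, 8.85 and 8.90 in ccr, against 27.8, 33.7 and 34.6 in WT. GRF3, a growth-regulating factor of young organs, had 4.93, 4.58 and 4.56 FPKM in ccrfer, 1.25, 0.747 and 0.464 in the fer-labelled libraries and 1.46, 1.33 and 1.17 in ccr, against 5.36, 4.3 and 6.41 in WT. For GRF3 the fer-labelled libraries overlapped ccr while ccrfer overlapped WT. AT4G31620, of the B3 family, had 8.11, 8.18 and 8.46 FPKM in ccrfer, 1.3, 1.24 and 2.31 in the fer-labelled libraries and 2.2, 2.84 and 2.65 in ccr, against 7.33, 9.70 and 8.11 in WT. Its fer minus ccr call (-0.46, SE 0.16, limma adjusted p = 0.0424) was lost in 9 of 17 alternative fits, most of them with 1 library left out. TAC1, a telomerase activator, had means of 2.29, 0.611, 0.359 and 2.95 FPKM in ccrfer, labelled fer, ccr and WT. WRKY65 had 4.91, 2.67, 0.908 and 3.78 FPKM in the same order, and NAC038 had 3.52, 1.16, 0.369 and 2.13.

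MYB60, a transcription factor of guard cells, and OZS1 form a pair from one cell type. MYB60 had 1.60, 2.16 and 5.5 FPKM in ccrfer, 3.11, 2.52 and 1.04 in the fer-labelled libraries and 0.352, 0.833 and 0.625 in ccr, against 3.33, 3.08 and 3.19 in WT. OZS1 had 3.95, 3.80 and 6.62 FPKM in ccrfer, 2.11, 1.77 and 2.51 in the fer-labelled libraries and 1.64, 1.57 and 1.44 in ccr, against 4.53, 4.37 and 4.67 in WT. In both genes ccrfer replicate 3 was the highest library, and neither met the rule without it. The guard-cell markers, MYB60 itself and KAT1, summed to 7.39 to 14.6 FPKM in ccrfer, 11.4 to 12.4 in the fer-labelled libraries and 3.87 to 5.23 in ccr, against 8.0 to 8.99 in WT. KAT1, a potassium channel of guard cells that is no member, had 7.05 ± 1.79 FPKM in ccrfer, 9.66 ± 0.615 in the fer-labelled libraries and 4.17 ± 0.575 in ccr, against 5.18 ± 0.571 in WT, with no call in ccr against WT (-0.26, limma adjusted p = 0.205).

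Defence chemistry gave 4 members, CYP79F2, NSP1, AOP1 and AOC2. CYP79F2 starts aliphatic glucosinolate synthesis from chain-elongated methionine, together with its neighbour CYP79F1. CYP79F2 (chr1:5605044-5607498, + strand) had 43.1, 40.8 and 40.4 FPKM in ccrfer, 56.7, 59.9 and 52.8 in the fer-labelled libraries and 18.3, 20.1 and 18.2 in ccr, against 45.8, 48.2 and 46.9 in WT. CYP79F1 had 772 ± 27.7 FPKM in ccrfer, 859 ± 57.3 in the fer-labelled libraries and 385 ± 6.49 in ccr, against 274 ± 12 in WT (SD, n = 3 each), and was higher in ccr than in WT (ccr minus WT 0.49, limma adjusted p = 6.39e-05). The spans of this pair are 86.5% identical over 2353 aligned bases, so reads can be split between them and both levels are uncertain to that degree. Of 12 other tested aliphatic glucosinolate genes, 11 were above WT in ccr and 0 below (24.0% and 19.8% of all tested genes). In ccrfer, 11 were above ccr and 1 below (10.4% and 10.1%). In the fer-labelled libraries, all 12 were above WT (28.4%).

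NSP1, the nitrile specifier protein that steers glucosinolate breakdown, had 173, 187 and 175 FPKM in ccrfer, 134, 127 and 124 in the fer-labelled libraries and 46.9, 43.1 and 43.2 in ccr, against 104, 106 and 100.4 in WT. Its ccrfer libraries were the highest, above fer (ccrfer minus fer 0.47, SE 0.06, limma adjusted p = 4.15e-05) and above all WT libraries. The fer minus WT difference of 0.31 (limma adjusted p = 0.000632) had no call after quantile normalization (adjusted p = 0.0559). AOP1, named with the glucosinolate oxygenases, had means of 7.26, 7.31, 2.55 and 6.31 FPKM in ccrfer, labelled fer, ccr and WT.

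AOC2 (chr3:9406669-9408071, + strand) is an allene oxide cyclase, which makes the ring of the jasmonate precursor. It had 16.1, 12.7 and 14.1 FPKM in ccrfer, 15.5, 16.6 and 19.5 in the fer-labelled libraries and 4.46, 3.94 and 4.86 in ccr, against 27.3, 30.2 and 33.6 in WT. The genotypes with a fer label overlapped at a level between ccr and WT (fer minus WT -0.79, SE 0.12, limma adjusted p = 0.000149). Of its relatives, AOC1 had 5.60 ± 4.03 FPKM in ccrfer, 22.0 ± 3.18 in the fer-labelled libraries and 3.79 ± 0.647 in ccr, against 18.4 ± 0.262 in WT. AOC1 shared the low level in ccr (ccr minus WT -2.03, limma adjusted p = 0.00214), and its ccrfer minus ccr difference of 0.20 had no call (adjusted p = 0.780), although it was 0.88 (adjusted p = 0.00101) without ccrfer replicate 3. AOC3 and AOC4 were higher in ccr than in WT, by 1.23 (limma adjusted p = 5.68e-06) and 0.69 (7.52e-05). AOC1 and AOC2 are 85.3% identical over 1245 aligned bases, which leaves their split uncertain. Of 20 other tested jasmonate genes, 10 were above WT in ccr and 1 below (24.0% and 19.8% of all tested genes). In ccrfer, 9 were above ccr and 2 below (10.4% and 10.1%). In the fer-labelled libraries, 18 were above WT and 0 below (28.4% and 23.2%).

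**Figure D4:**
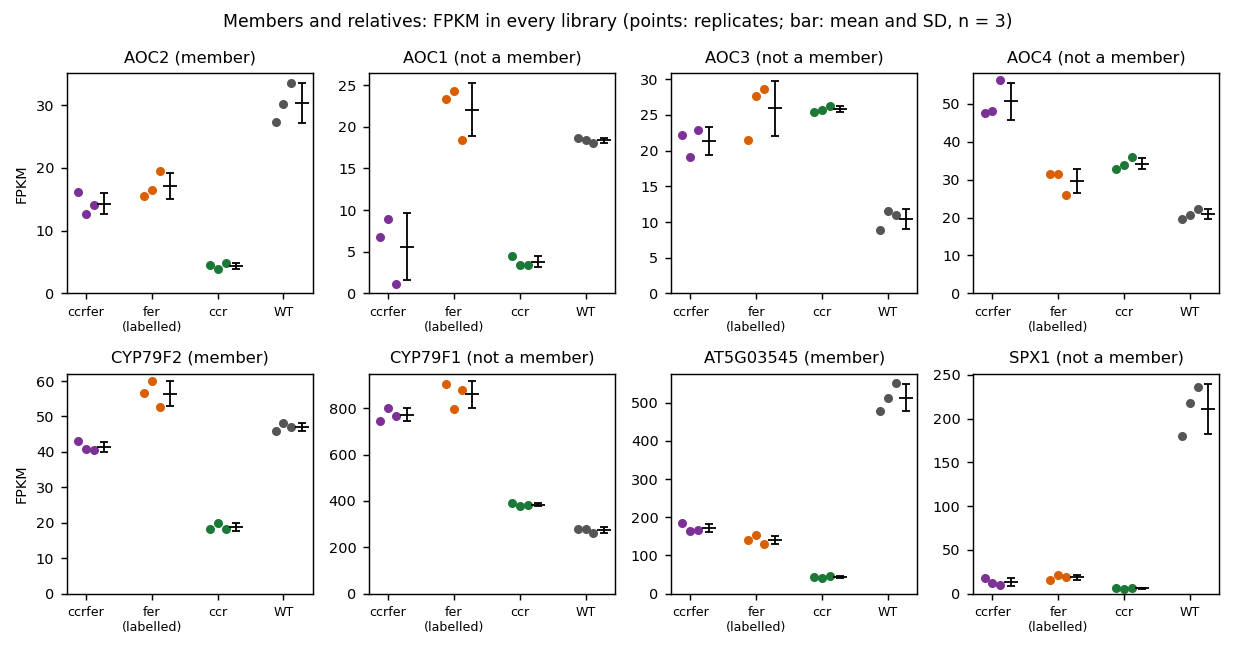
FPKM (vertical axes, each starting at 0) in every library for 3 of the 57 genes and their relatives, by genotype, with points for replicates and a bar for the mean with its SD (n = 3). AOC2, CYP79F2 and AT5G03545 share low ccr levels, whereas AOC3, AOC4 and CYP79F1 have ccr means above WT, and SPX1 stays below 20 FPKM on average in ccrfer, the fer-labelled libraries and ccr, against 211 in WT.

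The highest fer minus WT differences of the 57 came from 3 uncharacterized proteins. They had been entered on the iron deficiency and storage list but are not in its counts above. AT1G47395 had 8.42, 6.32 and 3.47 FPKM in ccrfer, 58.0, 65.8 and 76.0 in the fer-labelled libraries and 1.17, 0.787 and 0.710 in ccr, against 4.37, 5.07 and 4.45 in WT. Its neighbour AT1G47400, whose window is shown with it above, had 4.21, 2.94 and 1.89 FPKM in ccrfer, 24.7, 42.1 and 42.7 in the fer-labelled libraries and 0.363, 0.306 and 0.0773 in ccr, against 2.35, 2.26 and 2.80 in WT. AT2G30766, on chromosome 2, had 2.14, 2.29 and 1.27 FPKM in ccrfer, 26.1, 29.1 and 32.3 in the fer-labelled libraries and 0.271, 0.282 and 0.440 in ccr, against 4.04, 3.40 and 2.59 in WT. All 3 thus were lowest in ccr and far above the other genotypes in the fer-labelled libraries. The ccrfer libraries overlapped WT for AT1G47395 and AT1G47400 and lay below all WT libraries for AT2G30766 (ccrfer minus WT -0.59). The fer minus WT differences were 3.58 (SE 0.22) for AT1G47395, 3.40 (SE 0.24) for AT1G47400 and 2.81 (SE 0.17) for AT2G30766, with limma adjusted p of 6.87e-08, 2.04e-07 and 6.53e-08. The ccrfer minus fer differences were -3.31, -3.22 and -3.39. The pair of neighbours may share reads, given the identity of their spans.

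Further genes were also called higher than WT in the fer-labelled libraries. PP2-A14 (chr5:21176377-21180474, - strand), of the phloem lectin family, had 3.53, 3.61 and 3.44 FPKM in ccrfer, 16.4, 16.1 and 18.5 in the fer-labelled libraries and 0.417, 0.282 and 0.518 in ccr, against 2.91, 4.06 and 4.07 in WT (fer minus WT 1.95, SE 0.14, limma adjusted p = 1.64e-07). AT4G30450, a glycine-rich protein, had 22.9, 23.0 and 15.7 FPKM in ccrfer, 79.5, 84.2 and 76.6 in the fer-labelled libraries and 7.0, 8.57 and 8.92 in ccr, against 27.4, 23.4 and 29.5 in WT. Its adjacent glycine-rich neighbour AT4G30460, 2146 bases away, is also a member and lacked the high level in the fer-labelled libraries, with means of 40.3, 45.5, 18.7 and 51.8 FPKM in ccrfer, labelled fer, ccr and WT. The fer minus WT difference was 1.55 for AT4G30450 (SE 0.14, limma adjusted p = 1.95e-06) and -0.19 for AT4G30460 (SE 0.12, adjusted p = 0.183), and the difference between the neighbours was not tested. AT5G35480, an uncharacterized protein, had 11.9, 5.61 and 9.19 FPKM in ccrfer, 14.3, 40.0 and 41.2 in the fer-labelled libraries and 1.96, 3.03 and 3.61 in ccr, against 5.08, 11.4 and 13.9 in WT. Its libraries varied widely, as the SE of 0.42 on its fer minus WT difference of 1.52 shows (limma adjusted p = 0.0101). MLP34, of the major latex protein family, had 8.6, 8.78 and 7.73 FPKM in ccrfer, 7.74, 8.86 and 11.2 in the fer-labelled libraries and 1.17, 0.805 and 1.07 in ccr, against 4.31, 3.58 and 4.12 in WT. Its relative MLP28, no member and 82.0% identical over 1553 aligned bases, had 629 ± 45.7 FPKM in ccrfer, 2684 ± 15.0 in the fer-labelled libraries and 90.2 ± 4.86 in ccr, against 1.42 ± 0.686 in WT, and whether the pair shares reads was not tested. AT1G67000, a protein kinase, had means of 10.3, 19.4, 4.37 and 10.7 FPKM in ccrfer, labelled fer, ccr and WT, and AT4G24350, of the phosphorylase superfamily, had 9.68, 9.58, 1.92 and 4.89.

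The genes lowest in the fer-labelled libraries included AT4G30660 and AT5G47330 beside LZF1 and UMAMIT17. AT4G30660, of the low temperature and salt responsive family of small membrane proteins, had 52.4, 44.0 and 39.9 FPKM in ccrfer, 5.94, 8.80 and 6.26 in the fer-labelled libraries and 19.9, 21.1 and 20.0 in ccr, against 45.4, 43.7 and 47.1 in WT. Its fer minus WT difference was -2.55 (SE 0.13, limma adjusted p = 8.52e-09) and its ccrfer minus fer difference 2.55 (SE 0.13, adjusted p = 3.88e-08). AT5G47330, of the alpha/beta-hydrolase family, had 10.2, 7.38 and 8.90 FPKM in ccrfer, 2.57, 0.928 and 2.3 in the fer-labelled libraries and 3.73, 4.44 and 3.21 in ccr, against 13.7, 14.7 and 13.9 in WT. AT1G49230, of the RING ubiquitin ligase class, had 3.15, 1.84 and 5.63 FPKM in ccrfer, 1.48, 0.538 and a listed 0 in the fer-labelled libraries and 0.745, 0.473 and 0.724 in ccr, against 9.66, 6.30 and 9.13 in WT. For these genes the ccrfer level lay above every library labelled fer, the reverse of the order seen for AT1G47395.

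The remaining members are given by their means, each in the order ccrfer, labelled fer, ccr, WT. GASA1, a gibberellin-regulated protein, had 4.37, 3.86, 1.48 and 8.28 FPKM, and CKX4, which degrades cytokinins, had 3.55, 3.54, 0.175 and 2.33. CIPK21, a kinase that works with calcium sensors, had 31.9, 23.4, 15.3 and 41.0 FPKM. NUDT8, a nudix hydrolase, had 46.0, 19.8, 16.5 and 46.3 FPKM, and PnsL2, of the chloroplast NDH complex, had 5.25, 5.32, 1.89 and 7.46. CXE18, a carboxylesterase, had 4.27, 2.45, 1.1 and 4.04 FPKM, and the DnaJ-domain protein AT1G72416 had 10.1, 2.08, 3.66 and 9.71. The uncharacterized AT3G44450 had 16.8, 8.44, 5.24 and 19.5 FPKM, AT5G14275 had 15.2, 12.6, 2.25 and 16.3, the DUF1677 gene AT5G25840 had 3.63, 5.39, 0.799 and 6.05, and the RNI-like gene AT5G41830 had 2.23, 1.78, 0.200 and 1.53. Across all 57, 13 overlap a gene on the opposite strand, EARLI1 and YSL2 among them. The kit kept strand, but the strand setting of the counting was not given in the sources used here, so reads of such a partner may be included.

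The 2 members from mitochondrial sequence stand apart. AT2G07698, annotated as the alpha subunit of the ATPase F1 complex, lies on chromosome 2 (chr2:3361463-3364127, + strand), and its whole span of 2665 bases aligned to the mitochondrial genome at 99.96% identity, so reads can be placed at either copy and its level is uncertain. It had 618, 578 and 642 FPKM in ccrfer and 646, 680 and 703 in the fer-labelled libraries, was listed at 0 in all 3 ccr libraries, and had 538, 540 and 590 in WT. No fold is given against a listed 0, which in a table without counts can be a failed estimate. Its fer minus WT difference was 0.28 (SE 0.06, limma adjusted p = 0.00138), but -0.22 after quantile normalization (adjusted p = 0.00539). ATMG01190, in the mitochondrial genome, had 95.6 ± 18.2 FPKM in ccrfer, 88.9 ± 8.97 in the fer-labelled libraries and 75.6 ± 4.03 in ccr, against 85.9 ± 5.15 in WT, with no call in ccr against WT (limma adjusted p = 0.234). The second, ATMG01370, had 4.62, 1.2 and 14.9 FPKM in ccrfer, 0.587, 20.2 and 7.99 in the fer-labelled libraries and 0.339, 0.303 and 0.278 in ccr, against 1.86, 0.962 and 7.40 in WT. Its replicates spread more than 10-fold within ccrfer.

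By Pearson correlation over the 12 libraries with the mean scaled profile of the 57, the 5 most alike tested genes outside the set were ATCG00680 (r = 0.98), CRK18 (0.96), ATCG00340 (0.95), ATCG00350 (0.95) and AT5G52882 (0.94). The points share libraries and genotypes, and the correlations are a description. CRK18, a cysteine-rich receptor-like kinase, had mean levels of 41.5, 43.7, 23.6 and 54.5 FPKM in ccrfer, labelled fer, ccr and WT. ATCG00340 and ATCG00350, chloroplast genes of the 5 left out, were listed at 0 in ccr as AT2G07698 was, with 5072 and 4124 FPKM in ccrfer, 4240 and 3712 in the fer-labelled libraries, and 4783 and 4234 in WT.

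The limits of the rule cut through a continuum. Among 930 genes with a ccr minus WT difference of -1 or less and ccr below every WT library, 249 missed the set only by their ccrfer minus ccr difference. Just inside the ccr minus WT limit were AT4G24350 (-1.03), AOP1 (-1.04) and AT5G41830 (-1.06), and just outside were NRT1.1 (-0.98), ETC1 (-0.98) and ATG8H (-0.94). For ccrfer minus ccr, CIPK21 (1.00), PnsL2 (1.01) and AT5G47330 (1.03) lay inside, and AT5G42210 (0.99), AT4G16146 (0.99) and PUP1 (0.98) outside. At the lower ccrfer minus WT limit, FT (-1.94), AT5G03545 (-1.57) and HKT1 (-1.53) lay inside and GRP7 (-2.21), DMP2 (-2.31) and BFN1 (-2.35) outside. At the upper limit, MLP34 (0.91), AT4G24350 (0.86) and NSP1 (0.78) lay inside and CYP702A5 (1.03), DR4 (1.13) and AT3G32980 (1.15) outside.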

How the data were processed

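Stem messenger RNA of 12 libraries was read as pairs of 75 bp with a stranded kit, per the labels' protocols. TopHat2 2.1.1 and Bowtie2 2.3.2.0 with the TAIR10 genome, Cufflinks 2.2.1 and Cuffdiff were used, per the submitters' processing notes. FPKM values were computed by the authors for 27655 genes, per the file headers. A read report deposited by the authors gave read counts per library and the mapped fraction, and their table of 313 genes held means, log2 ratios and p-values, whose test no file names. The depth behind single genes is unknown, since counts per gene were not used here.

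The FPKM were put on the log2(FPKM + 1) scale. Genes reaching FPKM 1 in 3 libraries or more, 18428 in number, entered limma 3.58.1 (R 4.3.3), with genotype means fitted to all 12 libraries, no replicate block and a mean-variance trend. Tests were two-sided with Benjamini-Hochberg adjustment, called at 0.05. In simulated data for fer minus WT over 18428 genes, 98.0% of 50 genes raised by 2 (log2) and 98.0% of 50 lowered by 2 were called. For changes of 1, 86.0% of 50 raised and 74.0% of 50 lowered were called. The changed genes were drawn from those with a mean log2(FPKM + 1) above 2, and all genotypes had the same spread. Only 200 genes were changed, whereas 5237 were called higher and 4281 lower in the data, which alters the adjusted threshold. Recovery with so many changed genes, for lower genes, or with the wider spread of the genotypes with a fer label, was not simulated. Windows and names came from the TAIR10.1 reference, and 293 of 312 deposited coordinates lay within 500 bases of it. Alignments between genes used Biopython 1.88 and BLAST 2.17.0.

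Members and lists were chosen with earlier results of these data known. Members named with values are those on a list, the 12 most extreme in each rule contrast, the 8 highest and 8 lowest called in fer minus WT, the 3 each way in the other contrasts, those beside the limits, and neighbours. Relatives, the functional groups and the other members were named after their values were seen. Of 285 list genes, 12 were left out because the reference gives no such name. Among them were AT1G47395, AT1G47400 and AT2G30766, from the iron deficiency and storage list. Alternatives were a pseudocount of 0.1, no filter, median-of-ratios and quantile scaling, a replicate block, and leaving out each library.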

Additional observations from a re-analysis of the deposited data

How the results depend on the processing

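With a pseudocount of 0.1, 127 genes met the rule, 55 of the 57 among them, since a smaller pseudocount widens the differences of low genes. No filter gave 57 genes, median-of-ratios scaling 58 and quantile normalization 75. With 1 library left out the number lay between 56 and 69. In fer minus WT, 29 to 34 members were lower and 14 to 15 higher with 1 library left out. Against ccr, 37 to 43 were higher and 3 to 6 lower, with 3 in the fit without ccr replicate 2, and the cause was not tested. In ccrfer minus fer, 27 to 29 were higher and 12 to 14 lower. Of single members, 41 of 46 calls in fer minus WT, 39 of 45 in fer minus ccr and 38 of 40 in ccrfer minus fer were made under every alternative tried. AT2G07698 turned direction in fer minus WT after quantile normalization (-0.22), as did DFR (AT5G42800, -0.036, with no call), and the cause was not tested.

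Deviations from the genotype means correlated at -0.129 to 0.191 over 18 pairs of libraries that share a replicate number. Pairs with unlike numbers were not set beside them, so these values cannot decide whether the number marks a pairing. With the number as a replicate block, 14 members were higher and 32 lower in fer minus WT, as without it, and the counts of the other contrasts were also the same (40 and 5, 28 and 12).

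Levels under about 1 FPKM, where 16 members lie in ccr, have unknown counting error, and 3 libraries per genotype limit the precision of every difference. The set was chosen on values of 9 of the 12 libraries, so its ccr, ccrfer and WT levels are extremes of a selection, and no independent libraries were used here.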
